A study of Mus musculus with 154 samples.

Results

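Glo1 and Btbd9 are neighbouring genes on mouse chromosome 17, at a place where strain A/J is known to carry a duplicated stretch of the chromosome that holds Glo1. The rule that names both genes rests on that known duplication and uses no expression values. Both were found in the table, which holds 13289 genes of liver RNA. Their levels were compared between the mice that carry the chromosome 17 of A/J and all other mice of the study.

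The study used chromosome substitution strains, in which C57BL/6J (B6) mice carry one or more chromosomes of A/J in place of their own. Every mouse analysed here was listed as male, was 5 weeks old and had been fasted overnight, and the RNA came from liver. One mouse of (B6.A4 X B6.A14)F1, a non-carrier, had near no Y-linked counts and was kept as listed. Apart from the B6 controls, all mice were F1 hybrids and so were heterozygous for each substituted chromosome. The strains are written as labelled, with the sire first. The carriers of chromosome 17 were 26 mice of 5 strains, which were (B6 X B6.A17)F1 (n = 8), (B6.A4 X B6.A17)F1 (n = 4), (B6.A5 X B6.A17)F1 (n = 5), (B6.A8 X B6.A17)F1 (n = 5) and (B6.A10 X B6.A17)F1 (n = 4). In each, chromosome 17 came from the dam. The other mice belonged to 19 strains, which were B6 (n = 20) and 18 F1 strains (108 mice in all). Among these were the 4 strains that match the carriers apart from chromosome 17, (B6.A4 X B6)F1 (n = 8), (B6.A5 X B6)F1 (n = 7), (B6.A8 X B6)F1 (n = 8) and (B6.A10 X B6)F1 (n = 8). Another 3 strains carried 1 other substitution, (B6 X B6.A3)F1, (B6 X B6.A6)F1 and (B6 X B6.A14)F1 (n = 8 each). The remaining 11 carried a pair of substitutions without chromosome 17. With chromosome 4 from the sire these were (B6.A4 X B6.A6)F1 and (B6.A4 X B6.A14)F1 (n = 5 each). With chromosome 5 they were (B6.A5 X B6.A3)F1 (n = 5), (B6.A5 X B6.A6)F1 (n = 4) and (B6.A5 X B6.A14)F1 (n = 5). With chromosome 8 they were (B6.A8 X B6.A3)F1 (n = 3), (B6.A8 X B6.A6)F1 (n = 6) and (B6.A8 X B6.A14)F1 (n = 5). With chromosome 10 they were (B6.A10 X B6.A3)F1, (B6.A10 X B6.A6)F1 and (B6.A10 X B6.A14)F1 (n = 5 each). The whole of chromosome 17 was substituted, so a duplication cannot be told apart in these strains from other A/J alleles on that chromosome, and DNA copy number was not measured. Carriers had B6.A17 dams and their matched strains had B6 dams. The genotype of the dam thus differed together with chromosome 17 and cannot be told apart from it.

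Glyoxalase 1, the product of Glo1, is the first enzyme of the glyoxalase system. It acts on the adduct that methylglyoxal, a reactive by-product of glycolysis, forms with glutathione, and glyoxalase 2 (Hagh) then releases D-lactate and free glutathione. Liver expresses this system strongly. BTBD9 is a BTB domain protein that serves as a substrate adaptor of CUL3 ubiquitin ligases and has been linked to iron handling and, in people, to restless legs syndrome. When a stretch of DNA is duplicated, the reads of all its copies fall on the single copy in the reference genome. RNA reads from a further copy, where it is transcribed, are thus added to the count of the gene. An RNA count does not by itself measure the number of copies.

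In the GRCm38 (mm10) genome with the GENCODE annotation, Glo1 (ENSMUSG00000024026) occupies chromosome 17 from 30584936 to 30626871 and Btbd9 (ENSMUSG00000062202) from 30215524 to 30576488. Both are on the minus strand, and 8448 bases separate them. The annotated body of Glo1 overlaps that of Dnah8, a dynein heavy chain gene on the other strand, and a long non-coding transcript on the same strand spans Glo1 and the start of Btbd9. The strand setting of the authors' counting is not given in the sources used here. The transcripts that GENCODE pairs with RefSeq mRNAs were 895 bases in 7 exons for Glo1 and 7058 bases in 11 exons for Btbd9. The 250 bases before the RefSeq start of Glo1, at chr17:30612660-30612909 on the minus strand of GRCm38.p6, are shown because they belong to the gene with the larger difference. Capitals mark a CCAAT box and 3 matches to the GC box GGGCGG on the reverse strand, of which 2 overlap.

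Glo1 upstream: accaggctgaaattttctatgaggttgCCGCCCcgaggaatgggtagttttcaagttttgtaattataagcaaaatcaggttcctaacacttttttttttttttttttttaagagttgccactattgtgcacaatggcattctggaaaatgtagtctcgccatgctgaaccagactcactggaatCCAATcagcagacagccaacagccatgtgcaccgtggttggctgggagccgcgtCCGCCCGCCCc

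The CCAAT match lay at positions -65 to -61 from the start, and the GC box matches at -223 to -218, -11 to -6 and -7 to -2. Both strands were searched, and 33.8% and 32.7% of 32851 RefSeq mouse promoter windows of the same length held these motifs. The letters TGACNNNGC and TGCGCNC, which stand in simplified form for the cores of the antioxidant response element and of the metal response element, had no match in this window and were found in 10.2% and 12.5% of the promoter windows.

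The reads counted per mouse ranged from 7415260 to 26566797 (median 15052760) in the carriers and from 4638701 to 30465477 (median 16475054) in the others. Glo1 had between 936 and 12312 counts per mouse and Btbd9 between 53 and 494. The labels of the carriers were checked with 5 chromosome 17 genes over 5 Mb from Glo1, H2-T10, Abca3, Enpp4, Meiob and Plcl2, picked by a comparison of (B6 X B6.A17)F1 with B6. Their signed mean log2 CPM (CPM being read counts scaled to the same library size) was 2.37 to 2.68 in the 18 labelled carriers of the other 4 strains and 0.97 to 1.66 in the 108 labelled non-carriers, without overlap. All 8 hepatocyte markers were in the table, with a summed level of 55919 to 161899 CPM per mouse.

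Glo1 was higher in carriers of chromosome 17 in every matched comparison. The levels below are CPM on library sizes scaled by the TMM method. In (B6 X B6.A17)F1, the lowest of 8 mice had 399 CPM of Glo1, the median was 457.2 and the highest 705. In B6, the lowest of 20 mice had 150.4 CPM, the median was 220.02 and the highest 334. The mean was 512.6 ± 123 (SD, n = 8) against 230.5 ± 47.6 (SD, n = 20), and every carrier lay above every B6 mouse.

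The double strains gave the same order. In (B6.A4 X B6.A17)F1 the 4 mice had 393.5, 401.5, 479 and 505 CPM of Glo1, while the 8 mice of (B6.A4 X B6)F1 lay between 179 and 321 (median 253). In (B6.A5 X B6.A17)F1 the 5 mice had 454, 455, 487, 550 and 562 CPM, against 213 to 316 (median 257) in the 7 mice of (B6.A5 X B6)F1. Neither pair of strains overlapped. In (B6.A8 X B6.A17)F1 the 5 mice had 373.1, 386.8, 450.4, 503 and 553 CPM of Glo1, against 245 to 305 (median 279) in the 8 mice of (B6.A8 X B6)F1. In (B6.A10 X B6.A17)F1 the 4 mice had 402, 418.97, 433 and 505 CPM, against 148 to 219 (median 194) in the 8 mice of (B6.A10 X B6)F1, which had the lowest mean of all 24 strains. These groups did not overlap either, so the lowest carrier was above the highest matched mouse in 5 of 5 pairs. The share of all genes that separate in this way was not counted, so how unusual this is cannot be told from these values.

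**Figure D1:**
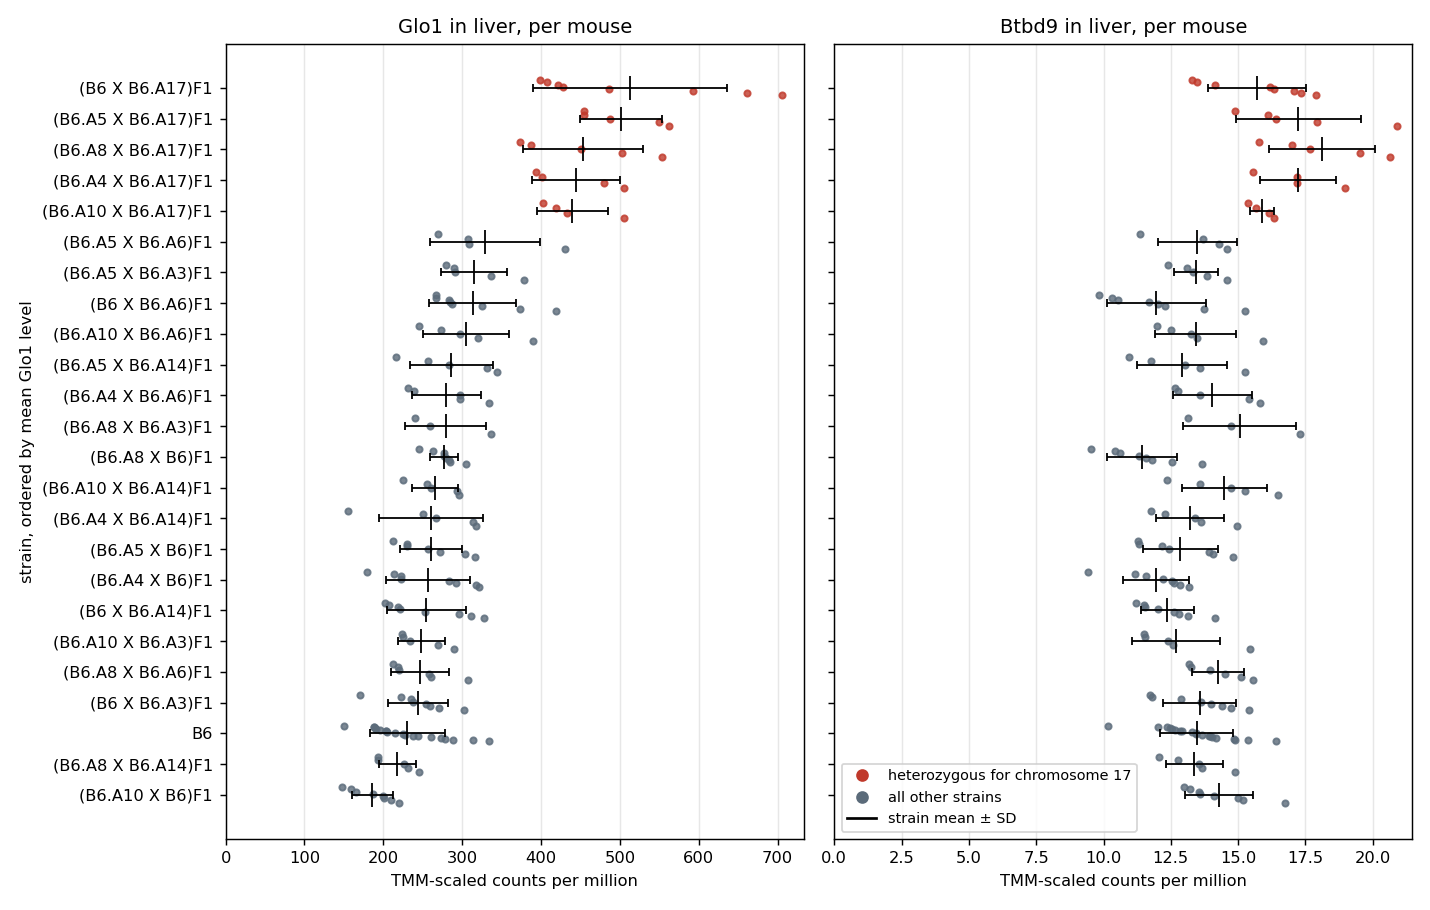
Level of Glo1 (left) and Btbd9 (right) in TMM-scaled CPM (horizontal axes, from 0), 1 point per mouse, for 24 strains (vertical axis) ordered by mean Glo1 level, with bars for the strain mean ± SD. The 5 strains heterozygous for chromosome 17 have the 5 highest means of both genes. The means of Glo1 show a step below these strains, although single mice overlap (lowest carrier 373.1, highest other mouse 430.4). The means of Btbd9 show no step beyond the SDs, and its mice overlap more (lowest carrier 13.3, highest other mouse 17.3).

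The question of each pair is whether the level of the gene differs with the A/J chromosome 17, and with the dam that gave it, where the sires are alike. The test was the quasi-likelihood F-test of edgeR, in 1 model of all mice, with p-values adjusted by Benjamini-Hochberg over all 13289 genes. The 5 pairs use different mice. Averaged over the 5 backgrounds, Glo1 was 1.92-fold higher in carriers (95% interval 1.80 to 2.04), a log2 fold change of 0.94 (SE 0.05, adjusted p = 1.08e-38). Of all genes, 1.04% passed an adjusted p of 0.05 in this contrast, 86 (0.647%) as higher and 52 (0.391%) as lower, and of the 630 genes on chromosome 17, 45 (7.14%) passed as higher. Glo1 ranked number 5 by p-value of all genes tested, and its rise was the third largest of the 462 chromosome 17 genes with a mean log2 CPM of at least 2. 

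By background, the log2 fold change of Glo1 was 1.06 without another substitution (SE 0.08, adjusted p = 7.94e-24, in a contrast in which 1.73% of genes passed as higher). With chromosome 4 in both strains it was 0.82 (SE 0.11, adjusted p = 2.15e-08, background 0.143%). With chromosome 5 it was 0.92 (SE 0.10, adjusted p = 1.26e-11, background 0.12%). With chromosome 8 it was 0.77 (SE 0.11, adjusted p = 1.1e-07, background 5.96%), and with chromosome 10 it was 1.13 (SE 0.11, adjusted p = 4.05e-15, background 0.0978%). Whether these differ was tested as the interaction of chromosome 17 with each of the others. None of the 4 interactions passed for Glo1 by edgeR or by DESeq2, in contrasts in which 1.21% (chromosome 4), 0% (chromosome 5), 8.65% (chromosome 8) and 0.113% (chromosome 10) of all genes passed. The interaction of chromosomes 17 and 8 was -0.29 (95% interval -0.56 to -0.02, unadjusted p = 0.0357, adjusted p = 0.173), and the other 3 had adjusted p-values of 0.401, 0.801 and 0.894. The 4 interactions together gave p = 0.0831 (adjusted p = 0.256), in a test that 7.6% of genes passed. The 95% intervals of those 3 reached from -0.51 (chromosome 4) to 0.34 (chromosome 10). Without surrogate variables the interaction of chromosomes 17 and 8 was -0.44 and passed (adjusted p = 0.0489, range over the alternatives 0.0489 to 0.919).

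Against all other mice, and without a model, Glo1 was 477 ± 85.1 CPM (SD, n = 26) in the carriers and 259 ± 53.9 CPM (SD) in the 20 B6 and 108 other mice, a ratio of 1.84. The carriers ran from 373.1 to 705 CPM (median 454) and the others from 148 to 430.4 (median 260). Of the 26 carriers, 16 lay above the highest of the others, and 4 of the others lay above the lowest carrier. The difference in mean log2 CPM was 0.89 (permutation test with 100000 resamples, two-sided, p = 1e-05, the smallest that these resamples can give). Labels were shuffled over single mice, although all mice of a strain share a label. This p-value therefore treats mice of the same strain as independent and does not measure the spread between strains.

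The 5 carrier strains had the 5 highest mean levels of Glo1, in the order (B6 X B6.A17)F1 with 512.6 CPM, (B6.A5 X B6.A17)F1 with 502 ± 51.6 (SD), (B6.A8 X B6.A17)F1 with 453 ± 76.2, (B6.A4 X B6.A17)F1 with 445 ± 55.8 and (B6.A10 X B6.A17)F1 with 439.8 ± 45.4. None of these neighbours in the order differed by more than the larger of their SDs. The step from the fifth strain to the next, (B6.A5 X B6.A6)F1 with 329 ± 70.1 CPM, was 111 CPM and exceeded both SDs. Below it the levels of Glo1 declined without such a step over 18 strains, from (B6.A5 X B6.A6)F1 to (B6.A8 X B6.A14)F1 with 218 ± 23.3 CPM. Of the 4 non-carrier strains with the highest means, 3 had chromosome 6 from the dam, with (B6 X B6.A6)F1 at 313 ± 55.5 and (B6.A10 X B6.A6)F1 at 305 ± 54.5 CPM beside (B6.A5 X B6.A6)F1. The remaining strains with chromosome 6 were lower, with (B6.A4 X B6.A6)F1 at 279.8 ± 43.5 and (B6.A8 X B6.A6)F1 at 246 ± 36.4 CPM. The strains with chromosome 3 were spread from (B6.A5 X B6.A3)F1 at 315 ± 41.8 to (B6 X B6.A3)F1 at 244 ± 38.6 CPM, and those with chromosome 14 from (B6.A5 X B6.A14)F1 at 286 ± 52.8 to (B6.A8 X B6.A14)F1. At the bottom, (B6.A10 X B6)F1 with 186 ± 25.9 CPM was again lower than the next strain by more than both SDs. This order rests on CPM without surrogate variables. In the edgeR model with 5 surrogate variables, the chromosome 10 main effect on Glo1 was -0.05 (adjusted p = 0.804) and did not pass. The order by CPM and the model effects thus differ here.

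Btbd9 was also higher in carriers, by a smaller factor. In (B6 X B6.A17)F1, the lowest of 8 mice had 13.3 CPM of Btbd9, the median was 16.3 and the highest 17.9, while the 20 B6 mice lay between 10.2 and 16.4 (median 13.4). These groups overlapped, and 3 of the 8 carriers lay above every B6 mouse. In (B6.A4 X B6.A17)F1 the 4 mice had 15.5, 17.2, 17.2 and 18.96 CPM of Btbd9, against 9.41 to 13.2 (median 12.4) in (B6.A4 X B6)F1. In (B6.A5 X B6.A17)F1 the 5 mice had 14.9, 16.1, 16.4, 17.9 and 20.9 CPM, against 11.3 to 14.8 (median 12.4) in (B6.A5 X B6)F1. In (B6.A8 X B6.A17)F1 the 5 mice had 15.8, 16.999, 17.7, 19.5 and 20.7 CPM of Btbd9, against 9.53 to 13.7 (median 11.5) in (B6.A8 X B6)F1. These 3 pairs did not overlap, although with chromosome 5 the lowest carrier (14.87 CPM) was next to the highest matched mouse (14.80 CPM). For Btbd9 too, the share of all genes that separate in this way was not counted. In (B6.A10 X B6.A17)F1 the 4 mice had 15.4, 15.7, 16.2 and 16.3 CPM and lay within the 12.995 to 16.7 CPM (median 13.8) of the 8 mice of (B6.A10 X B6)F1.

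Averaged over the 5 backgrounds, Btbd9 was 1.30-fold higher in carriers (95% interval 1.24 to 1.37), a log2 fold change of 0.38 (SE 0.04, adjusted p = 1.97e-16), which ranked it 12th by p-value of all genes. By background, the log2 fold change of Btbd9 was 0.32 without another substitution (SE 0.06, adjusted p = 0.000191), 0.50 with chromosome 4 (SE 0.08, adjusted p = 3.85e-05), 0.39 with chromosome 5 (SE 0.08, adjusted p = 0.0039) and 0.55 with chromosome 8 (SE 0.08, adjusted p = 1.48e-06). With chromosome 10 it was 0.16 (95% interval -0.01 to 0.32, unadjusted p = 0.0653, adjusted p = 0.656) and did not pass. The call with chromosome 5 rested in part on 1 mouse, since without replicate 3 of (B6.A5 X B6.A17)F1 the value was 0.32 and its adjusted p was 0.147. None of the 4 interactions passed for Btbd9 by edgeR or by DESeq2, with adjusted p-values of 0.166 to 0.897, and all 4 together gave an unadjusted p of 0.00868 (adjusted p = 0.0772). The interaction of chromosomes 17 and 8 was 0.23 (95% interval 0.02 to 0.43, unadjusted p = 0.0333, adjusted p = 0.166), opposite in sign to that of Glo1, and it passed without surrogate variables at 0.43 (adjusted p = 0.00129, range over the alternatives 0.00129 to 0.739) and without replicate 5 of (B6 X B6.A17)F1 at 0.27 (adjusted p = 0.049).

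Against all other mice, Btbd9 was 16.7 ± 1.89 CPM (SD, n = 26) in the carriers and 13.2 ± 1.55 CPM (SD) in the others, a ratio of 1.27. The range was 13.3 to 20.9 (median 16.4) in the carriers and 9.41 to 17.3 (median 13.2) in the others. Of the carriers, 8 lay above the highest of the others, while 60 of the others lay above the lowest carrier. The difference in mean log2 CPM was 0.34 (permutation test with 100000 resamples, two-sided, p = 1e-05, the smallest possible). As for Glo1, this p-value treats mice of the same strain as independent. The 5 carrier strains again had the 5 highest means, from (B6.A8 X B6.A17)F1 with 18.1 ± 1.96 to (B6 X B6.A17)F1 with 15.7 ± 1.82 CPM. Here the next strain, (B6.A8 X B6.A3)F1 with 15.1 ± 2.11 CPM (SD, n = 3), differed from the lowest carrier strain by less than the SDs, and no pair of neighbours among the 24 strains differed by more. The lowest mean of Btbd9 was that of (B6.A8 X B6)F1 with 11.4 ± 1.30 CPM.

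The sizes of both differences can be set beside the ratio of gene copies. As background, a haplotype with 1 extra copy of a whole gene gives a heterozygote 3 copies against 2 in B6. This is a ratio of 1.5, or 0.58 on the log2 scale. The averaged interval of Glo1 (0.85 to 1.03, log2) lay above this value, and that of Btbd9 (0.31 to 0.45, log2) lay below it. For Glo1, the interval lay above it in 4 of 5 backgrounds, with lower bounds of 0.91 without another substitution, 0.60 with chromosome 4, 0.72 with chromosome 5 and 0.91 with chromosome 10, while with chromosome 8 (0.55 to 0.98) it included it. That count was 3 without surrogate variables and with the count filter, where the interval with chromosome 4 started at 0.51 and 0.57, and 5 with 10 surrogate variables, where that with chromosome 8 started at 0.69. For Btbd9, the interval lay below it without another substitution (upper bound 0.44), with chromosome 5 (0.55) and with chromosome 10 (0.32), and included it with chromosome 4 (0.33 to 0.67) and with chromosome 8 (0.38 to 0.71). Without surrogate variables the interval with chromosome 5 also included it (upper bound 0.60). The ratio applies only to a gene that lies whole within the duplicated stretch. The ends of that stretch were not measured here, so whether it holds all of Btbd9 is not known from these data. What sets the size of either difference was not tested.

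**Figure D2:**
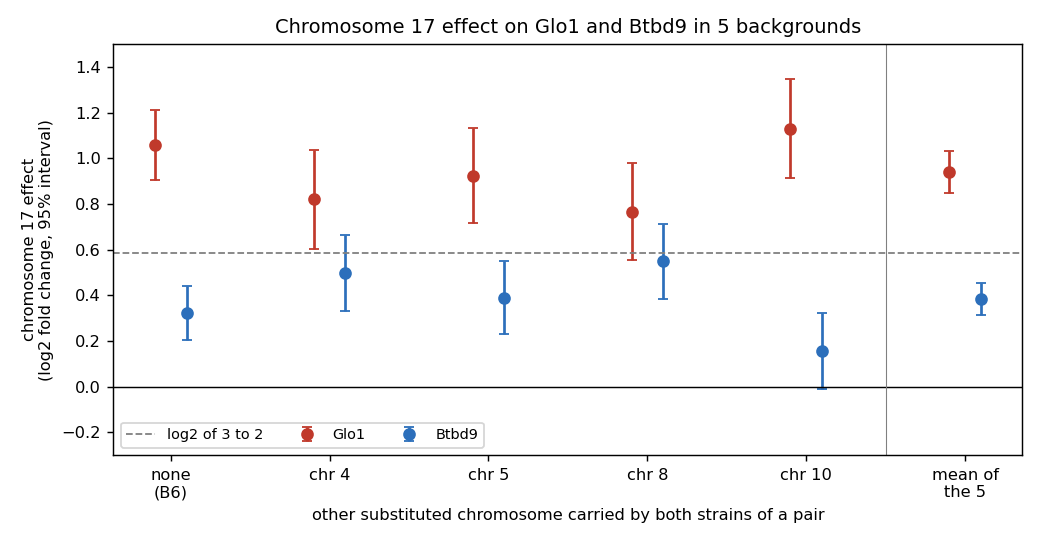
Chromosome 17 effect on Glo1 (red) and Btbd9 (blue) as log2 fold change of carriers over matched non-carriers (vertical axis), with 95% intervals from the edgeR model, for the 5 backgrounds and their mean (horizontal axis). The dashed line marks the log2 of a copy ratio of 3 to 2 (0.58), which applies to a gene duplicated whole. The mean effect of Glo1 (0.94) lies above the line and that of Btbd9 (0.38) below it.

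Per length, Glo1 was by far the more abundant of the pair. On the transcripts named above, it had 533 ± 95.1 CPM per kb in the carriers (SD, n = 26) and 289.8 ± 60.2 CPM per kb in the others (SD), while Btbd9 had 2.37 ± 0.27 and 1.87 ± 0.22 CPM per kb. The ratio of Glo1 to Btbd9 counts within a mouse, which does not depend on library scaling, ran from 19.8 to 53.1 (median 27.4) in the carriers and from 10.9 to 40.6 (median 19.4) in the others. In 3 carriers it was above the highest of the others.

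These 3 mice belonged to (B6 X B6.A17)F1. Its 3 mice with the most Glo1 (593, 661.6 and 705 CPM) had the least Btbd9 (13.5, 14.1 and 13.3 CPM), whereas the other 5 mice had 399 to 486 CPM of Glo1 and 16.2 to 17.9 CPM of Btbd9. Over all 26 carriers, as deviations from the mean of each strain, the levels of both genes on the log2 scale gave Pearson's r = -0.56 (permutation test within strains, p = 0.0118, adjusted p = 0.065 over 6 relations) and Spearman's rho = -0.56 (permutation p = 0.0132, adjusted p = 0.0701). Without the 2 mice farthest from the median of Glo1, r was -0.44. The relation thus failed the correction. In the others, r was -0.04 (permutation p = 0.65, adjusted p = 0.78, rho = -0.03). Library totals were one of the measures checked in the same way, and none of the 4 relations of Glo1 or Btbd9 to the total passed (the lowest adjusted p, 0.065, was for Glo1 in the others, r = -0.21).

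**Figure D3:**
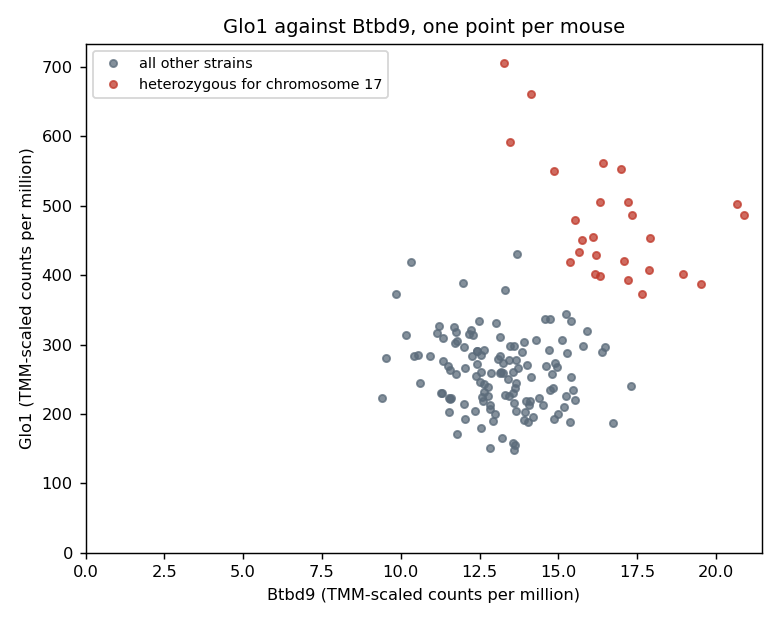
Glo1 (vertical axis) against Btbd9 (horizontal axis), both in TMM-scaled CPM from 0, 1 point per mouse. The 26 mice heterozygous for chromosome 17 (red) sit at 373.1 CPM or above of Glo1, and 3 of them combine the highest Glo1 levels with Btbd9 levels of 13.3 to 14.1 CPM, inside the range of all other mice (grey).

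The genes on both sides of the pair were then compared. GENCODE lists 73 genes within 1 Mb of Glo1, of which 18 were in the table. In the contrast averaged over 5 backgrounds, Glo1 and Btbd9 passed as higher and none of the other 16 genes passed in either direction by edgeR or by DESeq2, which gave 2 of them no adjusted p. At an unadjusted p under 0.05 there were 4 of the 16, beside 1654 of all 13289 genes (12.4%). The log2 fold changes of the 16 ranged from -0.34 for Tff3, a trefoil factor, to 0.11 for Cbs, which makes cystathionine from homocysteine. Dnah8, which overlaps Glo1, and Glp1r, the receptor of glucagon-like peptide 1, come before the next gene of the table on that side. Neither is in the table.

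The nearest measured neighbour on the side of Btbd9 was Zfand3, a zinc finger gene 374.1 kb from Glo1, with 0.07 (SE 0.03, unadjusted p = 0.0268, adjusted p = 0.309) in the averaged contrast. It passed as higher in 1 of the 5 backgrounds, that with chromosome 8 (0.22, SE 0.07, adjusted p = 0.0198, background 5.96%). On the other side it was Abcg1, a cholesterol exporter 431 kb away, with 0.04 (adjusted p = 0.805). Beyond Zfand3 lay Ccdc167 (-0.01), the cap methyltransferase Cmtr1 (0.02), Gm28043 (0.10), the ubiquitin ligase Rnf8 (0.01) and Tbc1d22b (0.04), all with adjusted p-values of 0.767 or more. Beyond Abcg1 lay Gm15318 (0.05), the sugar phosphate transporter Slc37a1 (-0.33), the cGMP phosphodiesterase Pde9a (-0.15), the tRNA methylation factor Wdr4 (0.02), the complex I subunit Ndufv3 (0.05), Gm38099 (-0.08) and the homeobox gene Pknox1 (0.06). Gm28043 overlaps Rnf8 and Cmtr1, so its reads cannot be separated from theirs with certainty.

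Pde9a had the smallest p of the 16 (unadjusted p = 0.00167, adjusted p = 0.0866) and was lower in 5 of 5 backgrounds. It passed as lower under 3 of its 8 alternatives, with adjusted p-values of 0.0109 to 0.0395. The lowest of these came from adjustment within chromosome 17, which is closer to the adjustment that the study used. With 1 carrier left out, Pde9a passed as lower in 2 of 26 cases. These were without replicate 5 of (B6 X B6.A17)F1 (adjusted p = 0.024) and without replicate 4 of (B6.A5 X B6.A17)F1 (adjusted p = 0.0448). Cbs (unadjusted p = 0.0257, adjusted p = 0.308) passed only without surrogate variables (0.17, adjusted p = 0.0371). Slc37a1 passed in (B6 X B6.A17)F1 against B6, with -0.81 (adjusted p = 0.0286, in a contrast in which 1.85% of genes passed as lower), but not in the averaged contrast (unadjusted p = 0.0146, adjusted p = 0.243).

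**Figure D4:**
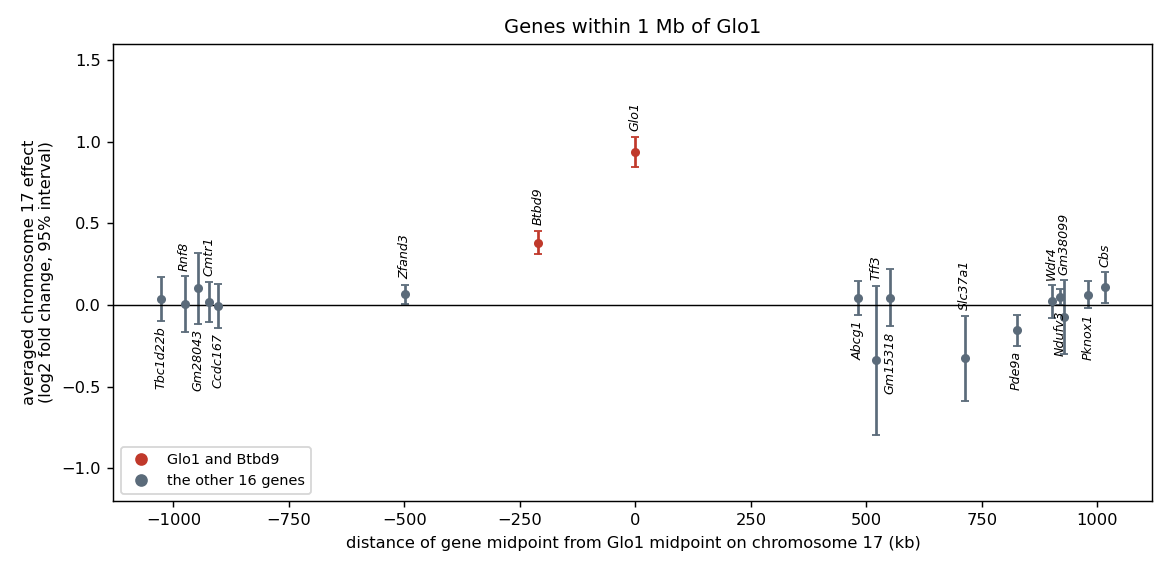
Averaged chromosome 17 effect as log2 fold change with 95% interval (vertical axis) for the 18 genes of the table within 1 Mb of Glo1, against the distance of the gene's midpoint from that of Glo1 in kb (horizontal axis). Glo1 (0.94) and Btbd9 (0.38) stand above 0, and the other 16 genes lie between -0.34 and 0.11.

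Genes related to glyoxalase 1 were taken from a list for the sources and the detoxification of methylglyoxal. The list also holds genes that do not act on methylglyoxal itself, such as Hagh and Ldhd. Of its 23 genes 20 were in the table, and Glo1 alone passed in the averaged contrast, as higher. Hagh, glyoxalase 2, which also lies on chromosome 17, had 142 ± 19.8 CPM in the carriers (SD, n = 26) and 144 ± 19.001 CPM in the others (SD), with a log2 fold change of -0.04 (SE 0.03, adjusted p = 0.607). Ldhd, which oxidises D-lactate, gave 0.09 (adjusted p = 0.528), and Tpi1, the triosephosphate isomerase whose substrates give rise to methylglyoxal, gave 0.01 (adjusted p = 0.956). The reductase Akr1a1 gave 0.06 (adjusted p = 0.159) and the aldehyde dehydrogenase Aldh2 gave 0.10 (adjusted p = 0.235). The median of the 20 genes was 0.05, beside 0.004 for all genes tested, and 3 of the 19 genes other than Glo1 had an unadjusted p under 0.05 (background 12.4%, 0 passed by DESeq2).

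For glutathione supply, 17 of 18 genes were in the table and 0 passed in either direction by edgeR in the averaged contrast. The catalytic and the modifier subunit of glutamate-cysteine ligase gave 0.13 (Gclc, adjusted p = 0.367) and 0.02 (Gclm, adjusted p = 0.813), and glutathione reductase (Gsr) gave 0.06 (adjusted p = 0.391). The median was 0.02. At an unadjusted p under 0.05 there were 4 of the 17 (Gclc, Gsr, Slc7a11 and Cbs, background 12.4%), and DESeq2 called 0. In the comparison of (B6 X B6.A17)F1 with B6, Ggt6, a gamma-glutamyltransferase, passed as lower (-0.38, adjusted p = 0.041, background 1.85%).

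The partners of BTBD9 were taken as a list of CUL3 ligase parts, other BTB adaptors and iron response genes. All 26 were in the table, and Btbd9 alone passed in the averaged contrast, as higher. Cul3, the scaffold of the ligase, gave -0.01 (adjusted p = 0.919), Rbx1, its RING subunit, gave -0.005 (adjusted p = 0.983), and the adaptor Keap1 gave 0.06 (adjusted p = 0.409). The median was -0.01. Of the 25 genes other than Btbd9, 2 had an unadjusted p under 0.05 (Ube2m and Dcun1d1, background 12.4%) and DESeq2 called 0. Of the iron response genes, Tfrc, the transferrin receptor, was lower (-0.90, adjusted p = 0.000145) and Ireb2, an iron response regulator, was higher (0.29, adjusted p = 0.0267) in (B6 X B6.A17)F1 against B6, a contrast in which 3.58% of genes passed. In the averaged contrast they gave -0.04 (adjusted p = 0.935) and 0.01 (adjusted p = 0.967).

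In bulk liver, fewer cells of a type and less RNA per cell cannot be told apart. Markers of hepatocytes, Kupffer cells, endothelial cells, stellate cells, cholangiocytes, erythroid cells and leukocytes were therefore set beside these results. In the averaged contrast, 0 of the 40 markers in the table passed by edgeR, 2 had an unadjusted p under 0.05 (Adgre1 and Spp1, background 12.4%) and DESeq2 called 0, with 5 given no adjusted p. The summed leukocyte markers ran from 11.8 to 39.3 CPM in the carriers and from 17.04 to 51.9 in the others, and the summed Kupffer cell markers from 229 to 572 and from 269 to 598. In (B6 X B6.A17)F1 against B6, 1.73% of all genes passed as higher. Among the markers, 1 of 6 Kupffer cell markers (Clec4f, adjusted p = 0.0357) and 1 of 6 endothelial markers (Clec4g, adjusted p = 0.01) passed as higher there. Their part in the differences of Glo1 and Btbd9 was not tested.

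The genes whose strain means followed Glo1 most closely over the 24 strains all lay on chromosome 17. By Pearson's r of the mean log2 CPM, among 9615 genes with a mean log2 CPM of at least 2, these were the complement gene C4a (r = 0.86), the lipid transporter Abca3 (0.83), Enpp4 (0.80), Meiob (0.77) and Gpatch11 (0.75). Over the 19 strains without chromosome 17, the same r was 0.07, 0.20, -0.17, 0.13 and 0.40. C4a was 21.5 ± 5.74 CPM in the carriers and 3.59 ± 1.12 CPM in the others (log2 fold change 2.60, SE 0.09, adjusted p = 1.82e-56), and Abca3 was 63.9 ± 11.6 and 31.2 ± 6.50 CPM (1.17, SE 0.05, adjusted p = 5.1e-46). Reads of C4a can be shared with its near copy C4b, so its level is uncertain.

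For Btbd9 the closest were Tap2, a peptide transporter of antigen presentation (r = 0.88), Anks1 (0.84) and C4a (0.82). For Tap2 and Anks1 the r over the 19 strains without chromosome 17 was 0.81 and 0.68, and for C4a it was 0.10. Glo1 and Btbd9 themselves gave r = 0.68 over the 24 strains and -0.21 over the 19. These values describe strain means that share library preparation and, in part, substituted chromosomes, and the 5 carrier strains stand apart for every gene that chromosome 17 shifts.

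Glo1 also differed with other chromosomes, in comparisons that share the B6 mice. Against B6, the chromosome 8 main effect on Glo1 was 0.39 on the log2 scale (SE 0.09, adjusted p = 0.000178), in a contrast in which 29.6% of all genes passed. Chromosome 6 gave 0.36 (SE 0.08, adjusted p = 0.00103, background 8.11%), chromosome 14 gave 0.32 (SE 0.08, adjusted p = 0.00134, background 22.6%) and chromosome 4 gave 0.22 (SE 0.08, adjusted p = 0.0492, background 13.6%). The main effects of chromosomes 3, 5 and 10 did not pass (0.17, 0.17 and -0.05, with adjusted p-values of 0.215, 0.34 and 0.804 and backgrounds of 3.74%, 0.82% and 6.61%). With 10 surrogate variables none of the 4 calls held, and the chromosome 4 effect was -0.0076 (adjusted p = 0.982). For Btbd9, the main effects of the other 7 chromosomes ran from -0.15 to 0.09 with adjusted p-values of 0.0665 to 0.999, and 3 of them had an unadjusted p under 0.05 (chromosomes 4, 6 and 8). Of the 11 interactions that do not involve chromosome 17, 2 passed for Glo1, those of chromosome 8 with 6 (-0.61, background 24.9%) and with 14 (-0.63, background 32.4%), and 1 for Btbd9, that of chromosomes 6 and 8 (0.39). With 10 surrogate variables none of the 3 passed (-0.21, -0.22 and 0.24, with adjusted p-values of 0.392, 0.325 and 0.26).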

How the data were processed

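Stranded total RNA libraries were made from the livers of 154 mice listed as male (26 carriers of chromosome 17 and 128 others) and sequenced from one end. For alignment the authors used TopHat2 with mm10, then an A/J version of the genome for reads left over, and HTSeq for counting. What they deposited are raw, unnormalized counts of 13289 genes, and every gene had at least 15 counts in at least 39 mice. The study's methods describe removal of duplicate reads. Glo1 counts were above the transcript length of 895 bases in 154 of 154 mice, and Btbd9 counts above 7058 bases in 0. Flow cells are not given in the sources used here. Each sample is a separate mouse, and p-values measure the spread between mice.

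Symbols and positions came from GENCODE vM21 (13242 of 13289 genes matched), the promoter from RefSeq, where Glo1 matched. No entry was used for Btbd9. Counts were normalized with TMM in edgeR (version 4.0.16, R version 4.3.3). As in the study, the model had terms for 8 chromosomes and 15 pairs, with 5 svaseq variables (sva version 3.50.0). The test was the quasi-likelihood F-test of edgeR (legacy=TRUE), with Benjamini-Hochberg adjustment over all genes per contrast and a threshold of 0.05. The study instead adjusted within strata, set by chromosome and by whether a gene lies on a substituted chromosome. The averaged contrast is the mean of 5 differences, each between a carrier strain and the strain that lacks only chromosome 17. Intervals (95%) come from the F statistic. A prior count of 2 was used for log2 CPM. Permutation tests used 100000 resamples. In simulated counts of 13289 genes, the averaged contrast recovered 100 of 100 genes changed by 0.9 and 99 of 100 changed by 0.4 (log2). The changed genes were drawn from those with higher counts, the fit was given the dispersions used to simulate, and no hidden variation was added. The simulation therefore does not give the power for genes with few counts or for the real spread between mice.

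The genes named are Glo1, Btbd9, the genes of the table within 1 Mb of Glo1, list genes past the threshold in the averaged contrast, and the 5 genes most like Glo1 and 3 most like Btbd9. List genes named with no call, or with a call in another contrast, were picked for their roles or after their values were seen. Although the rule for Glo1 and Btbd9 uses no expression values, they and the lists were chosen with earlier results of these data known. The copy ratio was set beside the intervals under other settings after the data were seen. One mouse whose label lacks the F1 suffix was placed with (B6.A5 X B6.A3)F1.

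The alternatives were 0 or 10 surrogate variables, size factors or the Wald test of DESeq2 (version 1.42.0), a filter of at least 15 counts in at least 75% of mice, legacy=FALSE, adjustment within chromosome 17, leaving out each carrier, and leaving out 1 mouse of (B6.A4 X B6.A14)F1 with near no Y-linked counts. For the permutation results they were a prior count of 0.5, DESeq2's size factors, deposited totals without TMM, and only strains with a B6 dam as controls.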

Additional observations from a re-analysis of the deposited data

Results flagged for a closer look

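For these genes, 3 interactions between chromosomes other than 17 passed, which means that the effect of one substitution differed with the other present. For Glo1, the interaction of chromosomes 6 and 8 was -0.61 on the log2 scale (SE 0.13, adjusted p = 0.000194, with 24.9% of all genes passing in that contrast) and the interaction of chromosomes 14 and 8 was -0.63 (SE 0.14, adjusted p = 0.000127, background 32.4%). Glo1 was 246 ± 36.4 CPM in (B6.A8 X B6.A6)F1 (SD, n = 6) and 218 ± 23.3 CPM in (B6.A8 X B6.A14)F1 (SD, n = 5), beside 276.8 ± 17.5 CPM in (B6.A8 X B6)F1 (SD, n = 8), 313 ± 55.5 CPM in (B6 X B6.A6)F1 (SD, n = 8) and 255 ± 50.02 CPM in (B6 X B6.A14)F1 (SD, n = 8). For Btbd9, the interaction of chromosomes 6 and 8 was 0.39 (SE 0.10, adjusted p = 0.00183). With 10 surrogate variables none of the 3 passed (-0.21, -0.22 and 0.24, with adjusted p-values of 0.392, 0.325 and 0.26). Btbd9 was 14.3 ± 0.97 CPM in (B6.A8 X B6.A6)F1, beside 11.4 ± 1.30 CPM in (B6.A8 X B6)F1 and 11.96 ± 1.83 CPM in (B6 X B6.A6)F1.

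One mouse stood apart within its strain. Btbd9 in replicate 5 of (B6.A10 X B6.A3)F1 was 15.5 CPM, with the next mouse at 12.6 and the lowest at 11.5. It was the only such value among 44 combinations of strain and gene with 4 to 10 mice, of which chance alone gives about 1 in 20.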

How the results depend on the processing

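The averaged chromosome 17 effect passed under each of the 8 alternatives, from 0.92 to 0.97 for Glo1 and from 0.38 to 0.40 for Btbd9, and with each of the 26 carriers left out (0.91 to 0.95 and 0.37 to 0.40). The effect without another substitution also passed in each, from 0.93 to 1.15 for Glo1 and from 0.23 to 0.38 for Btbd9. The permutation result of carriers against all others was 0.86 to 0.97 for Glo1 and 0.31 to 0.40 for Btbd9 over 4 alternatives, each at the smallest possible p. Of 359 values recomputed outside the leaving out of 1 carrier, 338 kept their status. This number includes values that passed in neither setting, such as most neighbours of Glo1, and so does not measure how many calls held.

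Without surrogate variables, the interaction of chromosomes 17 and 8 passed for Glo1 (-0.44) and Btbd9 (0.43), and the Glo1 main effects of chromosomes 4 and 14 no longer passed (0.15 and 0.14). With 10 surrogate variables, the Glo1 main effects of chromosomes 8, 6 and 14 were 0.14, 0.20 and 0.10 and did not pass, that of chromosome 4 turned to -0.0076, and neither the Glo1 interactions 6:8 and 14:8 (-0.21 and -0.22) nor the Btbd9 interaction 6:8 (0.24) passed. The Glo1 main effect of chromosome 4 also missed the threshold at 0.21 with DESeq2's size factors, with DESeq2's test and without the mouse with near no Y-linked counts. The cause of these changes was not tested.

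The averaged contrast called 86 genes as higher and 52 as lower. The sum of both was 515 without surrogate variables, 258 with 10 of them and 233 with the count filter, which tests fewer genes. Leaving out 1 carrier gave 106 to 239 genes, the highest without replicate 4 of (B6.A5 X B6.A17)F1. Leaving out 1 carrier moved the Btbd9 effect with chromosome 5 between 0.32 and 0.44 and the Btbd9 interaction of chromosomes 17 and 8 between 0.15 and 0.27, and it changed 1 call in each. Leaving out 1 carrier reused the dispersions of all mice. No paired analysis was possible because the labels give the mice no replicate numbers that strains share. Btbd9 had as few as 53 counts per mouse, and its averaged SE was 0.04 against 0.05 for Glo1.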
